A study of Mus musculus with 12 samples.

Results

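The genes described here are 55 nucleolar factors that make ribosomes, from the start of ribosomal RNA synthesis to the assembly of both ribosomal subunits. They were chosen by name, and all 55 were found among the 36175 genes of the deposited table. Their expression was measured by bulk RNA sequencing in B cells of the intestinal Peyer's patches (PP), the lymphoid follicles of the gut wall, from 6 sham controls and 6 stroke mice. All animals were male wild-type mice of the C57BL/6JHsd strain, 10 to 12 weeks old, and cells were taken 18 h after surgery. Stroke mice, labelled brain injury, had the middle cerebral artery closed by a filament for 1 h and then reopened (tMCAO, transient middle cerebral artery occlusion), whereas in sham controls the filament was placed and withdrawn at once. B cells were purified magnetically, first with a pan B cell kit and then with CD45 beads, and the cells were those still present in PP after surgery.

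Ribosome biogenesis begins in the nucleolus, where RNA polymerase I transcribes the ribosomal RNA genes into a long precursor. Small nucleolar ribonucleoproteins (snoRNPs) then modify this precursor at chosen bases, processing complexes cut and fold it, and the maturing small and large subunits leave the nucleus on separate routes. Activated B cells enlarge their nucleoli before they divide, and the transcription factor Myc and the mTOR kinase are textbook drivers of these genes. The comparison asked whether the transcripts of this machinery differed between PP B cells of stroke mice and of sham controls.

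Values are given in the deposited unit, normalized TPM, a length-corrected abundance that allows genes to be compared within a mouse. Fold changes are differences of the group means of log2(value + 0.5), so they understate changes of low genes. A gene entered the limma fit if no mouse fell below a value of 1, which left 12590 genes and all 55 factors. Unless stated otherwise, p is limma's unadjusted value and adjusted p is Benjamini-Hochberg over the 12590 genes. In bulk samples fewer cells of a type and less RNA per cell cannot be told apart.

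Some libraries stood apart before any group was compared. Sham 6 had the smallest column total, 559570 against 804983 to 1404340 in the other mice, and sham 1 and sham 2 had the largest. The 10 most abundant genes of each mouse held from 14.7% of the total in sham 6 to 45.8% in sham 1. Setting columns to equal totals therefore depends on a few abundant genes. Size factors from the median of ratios over the genes tested ran only from 0.913 in sham 6 to 1.07 in sham 2. Stroke 6 had 30060 genes above 0, whereas the other mice had 20626 to 23947. Stroke 5 had the highest share of mitochondrial transcripts, 7.49% against 2.13% to 5.11%, and the lowest of immunoglobulin transcripts, 2.14% against 3.97% to 5.35%. All 8 listed B cell genes were above 0 in every mouse. Their summed level was 2496 to 3207 in sham controls and 1587 to 2852 in stroke mice. The listed T cell, plasma cell and epithelial genes were all above 0 in every mouse too, so presence alone does not check the B cell label. The 7 epithelial genes summed to 9.79 to 1325 in sham controls and to 12.0 to 572 in stroke mice. Sequencing depth per library is unknown here, because the table holds no read counts. The study combined several experiments, which the labels do not assign to mice, so no batch was examined.

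The nucleolar factors were expressed in every mouse, and their mean level differed between groups by less than the spread between mice. Of the 55 factors, 2 were lower in stroke mice at p below 0.05, Rrn3 and Nat10, and 1 was higher, Ncl. Over all genes tested 1.69% were called lower and 4.42% higher by the same rule, so the members' shares of 3.64% and 1.82% were near the background. None of the 55 passed the adjusted threshold, and their smallest adjusted p was 0.791. The same holds for all 12590 genes, of which 0% passed and whose smallest adjusted p was 0.468 in limma, with 213 genes lower and 557 higher at unadjusted p below 0.05.

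Members moved little and in both directions. The log2 fold change was negative in 30 of 55 members (54.5%) and in 48.6% of all genes tested. Its median was -0.021 over the members and 0.0069 over all genes. The median size of the change, regardless of sign, was 0.098 in members and 0.14 in all genes. No member had groups that did not overlap, whereas 0.0874% of all genes lay entirely lower and 0.349% entirely higher in stroke mice. The 95% interval of the fold change stayed within 1.5-fold in either direction for 49 of 55 members, against 57.3% of all genes tested. Members also had a higher median level than all genes, 35.9 against 18.8 normalized TPM. Their median SD within groups was smaller, 0.212 against 0.309 on the log2 scale. The intervals widen with this SD, so the shares compare spread as well as change. The 6 members with wider intervals were Nhp2, Pno1, Ncl, Nop10, Imp3 and Npm1, so for these a change beyond 1.5-fold lay within the interval.

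**Figure D1:**
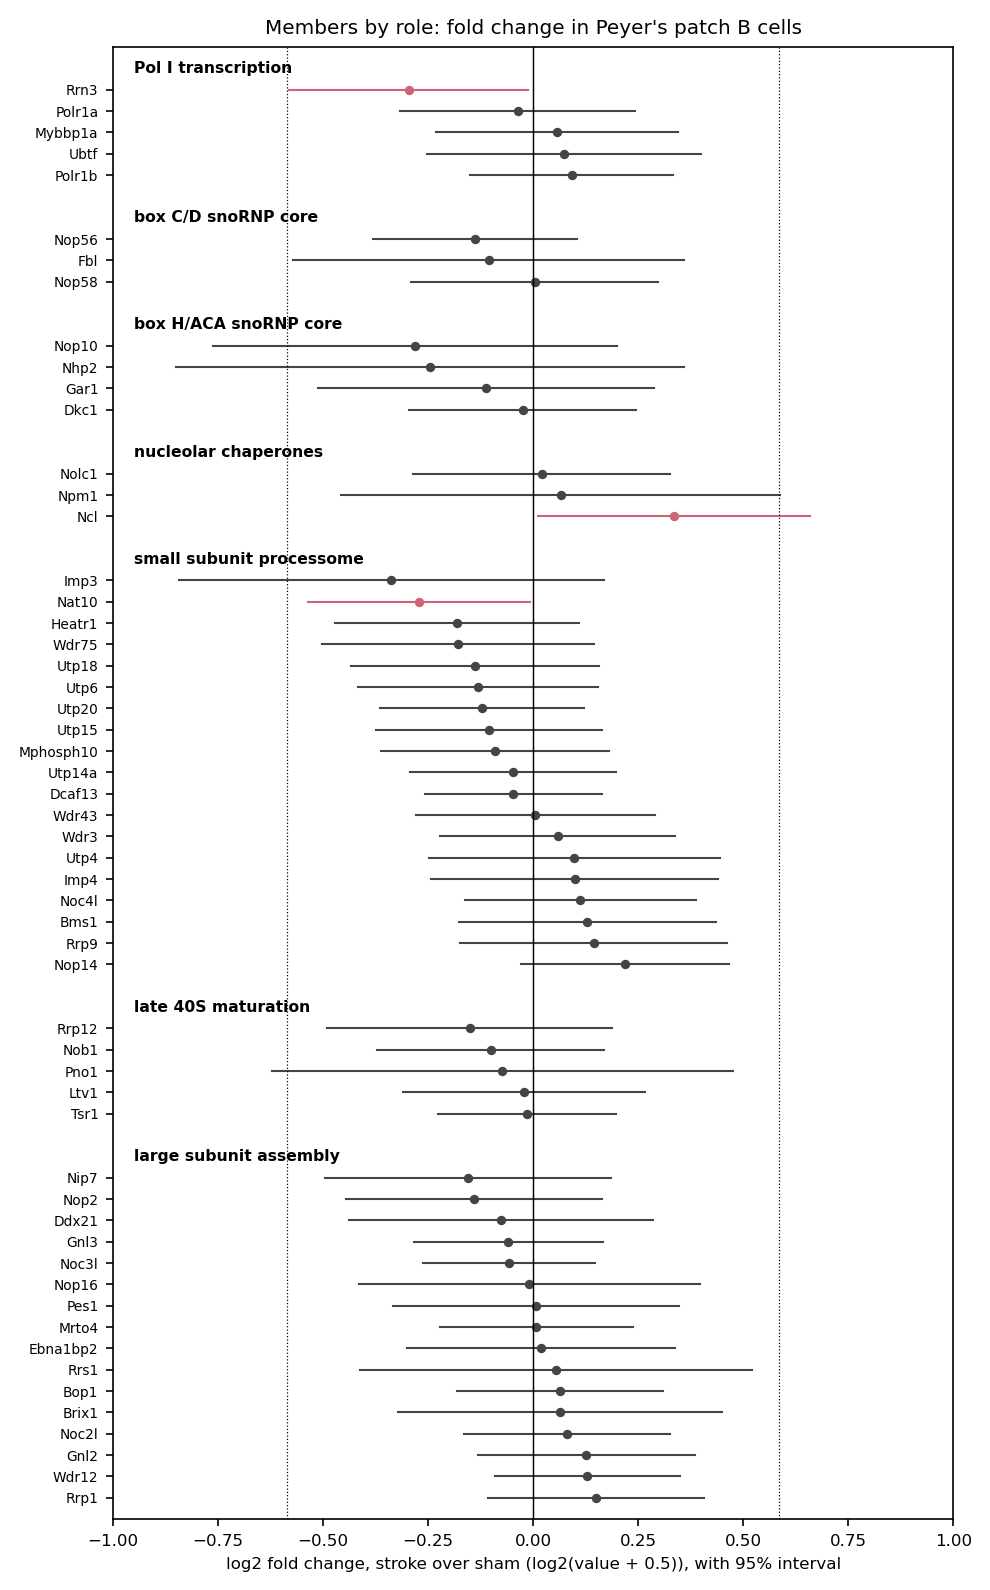
Log2 fold change of stroke over sham on the log2(value + 0.5) scale for each of the 55 members, grouped by role, with limma's 95% interval as a line; dotted lines mark 1.5-fold in either direction and red marks unadjusted p below 0.05. Rrn3, Nat10 and Ncl are the 3 red members, the points range from -0.34 for Imp3 to 0.34 for Ncl, and 49 intervals lie between the dotted lines.

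The summed level of the 55 factors was 2423 to 3828 normalized TPM in sham controls and 3023 to 3739 in stroke mice. Both extremes were sham mice, sham 6 and sham 2, so the stroke values lay inside the sham range. Averaged over the members, the log2 level of sham controls was 5.30 ± 0.190 (SD, n = 6) and that of stroke mice 5.27 ± 0.0768 (SD, n = 6), a difference of -0.028. Taken relative to the mean of all genes tested in the same mouse, it was 1.02 ± 0.0950 (SD, n = 6) and 0.989 ± 0.0917 (SD, n = 6). Both differences were smaller than the spread between mice, and sham 6 and stroke 6 were the lowest of their groups on both scales.

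**Figure D2:**
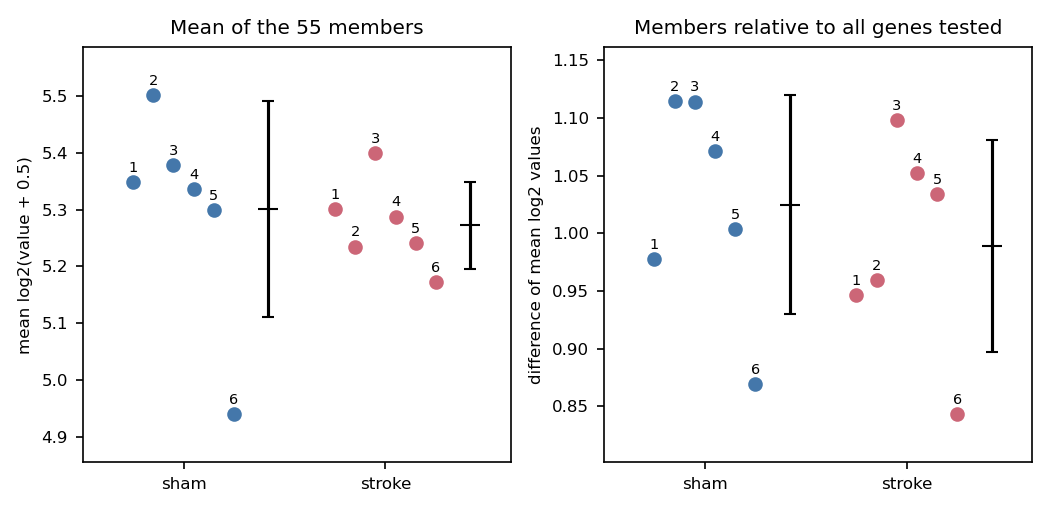
Mean log2(value + 0.5) of the 55 members in each mouse (left) and the same after subtracting the mean of all 12590 genes tested in that mouse (right); points are mice numbered by replicate and bars are the group mean ± SD. Sham 6 sits at 4.94 on the left, below the other mice, and at 0.869 on the right, where stroke 6 is lower at 0.843.

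On the deposited scale sham 6 was low for most of this machinery, and its rank turned with equal totals but not with every scaling. With median-of-ratios scaling its mean log2 level over the members was still the lowest of the 12 mice, 5.07 against 5.14 to 5.41. After quantile normalization only stroke 6 was lower, 5.17 against 5.20 in sham 6. With all columns set to equal totals the mean log2 level of sham 6 was the highest of the 12 mice, 5.70 against 4.81 to 5.53. The members then made up 0.433% of the total of sham 6, against 0.236% to 0.414% in the other mice. Relative to the mean of all genes tested sham 6 was the lowest sham control both as deposited, at 0.869, and with equal totals, at 0.889. As deposited, sham 6 was the lowest of the 6 sham controls for 40 of 55 members (72.7%), against 40.5% of all genes tested, and the lowest of all 12 mice for 26 members. Its value lay a median 0.37 log2 units below the mean of the other sham controls over the members, and 0.14 below it over all genes. The deficit was deepest for Nhp2, where sham 6 differed from the other sham controls by -1.47 on the log2 scale, followed by Pno1 (-1.36), Npm1 (-1.31), Rrs1 (-1.26) and Fbl (-1.14). Gnl3, a nucleolar GTPase, went the other way and was 0.29 higher in sham 6. As deposited, the same mouse had the lowest summed level of the 10 cycling cell markers, 358, against 429 to 799 in the stroke mice, and was the lowest mouse for 5 of the 10. As a share of its total that sum was 0.064%, within the 0.0339% to 0.0824% of the other mice and at rank 3 from the highest. As deposited, the summed epithelial markers of sham 6 were the lowest too, 9.79. As a share of the total they were 0.00175%, and stroke 4 was lower at 0.00149%. The part of either in the members' values was not tested.

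Without sham 6, 5 members were lower in stroke mice at p below 0.05 and none was higher, while the background rose to 9.2% of genes lower and 7.44% higher. The 5 were Rrn3 with a log2 fold change of -0.36, Nhp2 with -0.49, Imp3 with -0.50, Utp18 with -0.25 and Nop10 with -0.44, each past the limma threshold. This was 9.09% of the members, close to the background share. The members' median log2 fold change moved to -0.088 and 41 of 55 were negative, while the median of all genes moved to -0.021, and the smallest adjusted p among them was 0.259. Ncl then had a log2 fold change of 0.23 (SE 0.12) and Nat10 of -0.26 (SE 0.13), and neither was called.

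At the start of the pathway stand the 5 factors of RNA polymerase I transcription, of which 1, Rrn3, was lower in stroke mice and none was higher. Rrn3 carries RNA polymerase I to the promoter of the ribosomal RNA genes and is a point of growth control. It lies on chromosome 16 (chr16:13780708-13814839, GRCm38). Its values in sham controls ran from 15.4 through a median of 19.0 to 25.5 normalized TPM, and in stroke mice from 12.7 through 15.99 to 16.9. Every stroke mouse lay below the sham median and 2 lay below the lowest sham control, sham 6, so the groups overlapped. The means were 19.3 ± 3.55 (SD, n = 6) and 15.5 ± 1.63 (SD, n = 6). On the log2 scale the change was -0.30 (SE 0.13, 95% interval -0.58 to -0.012), with p = 0.0422 and adjusted p = 0.791 by limma, and the exact two-sided permutation test gave p = 0.0303. Over 25 alternative settings Rrn3 kept p below 0.05 in 14, and it lost the call without any 1 of sham 1, 2, 3 or 5 or stroke 2, 3, 4 or 6, where log2 fold changes stayed negative, between -0.36 and -0.21 over all mice left out in turn. With equal column totals Rrn3 had -0.17, and without sham 1 and sham 2 together -0.17, and it was not called in either.

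Ubtf, the HMG-box protein that coats active ribosomal RNA genes, had the highest level of the 5 (chr11:102304560-102319742, GRCm38). Its values were 75.5, 132 and 144 normalized TPM (lowest, median and highest) in sham controls and 116, 127 and 141 in stroke mice. All stroke values lay within the sham range, whose lower end was sham 6 alone. Stroke over sham gave a log2 fold change of 0.074 (SE 0.15, 95% interval -0.25 to 0.40), with limma adjusted p = 0.926. The catalytic subunits of the polymerase, Polr1a and Polr1b, had log2 fold changes of -0.037 and 0.091, and Mybbp1a, a nucleolar protein tied to polymerase I and precursor processing, had 0.057. None of these 3 was called.

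**Figure D3:**
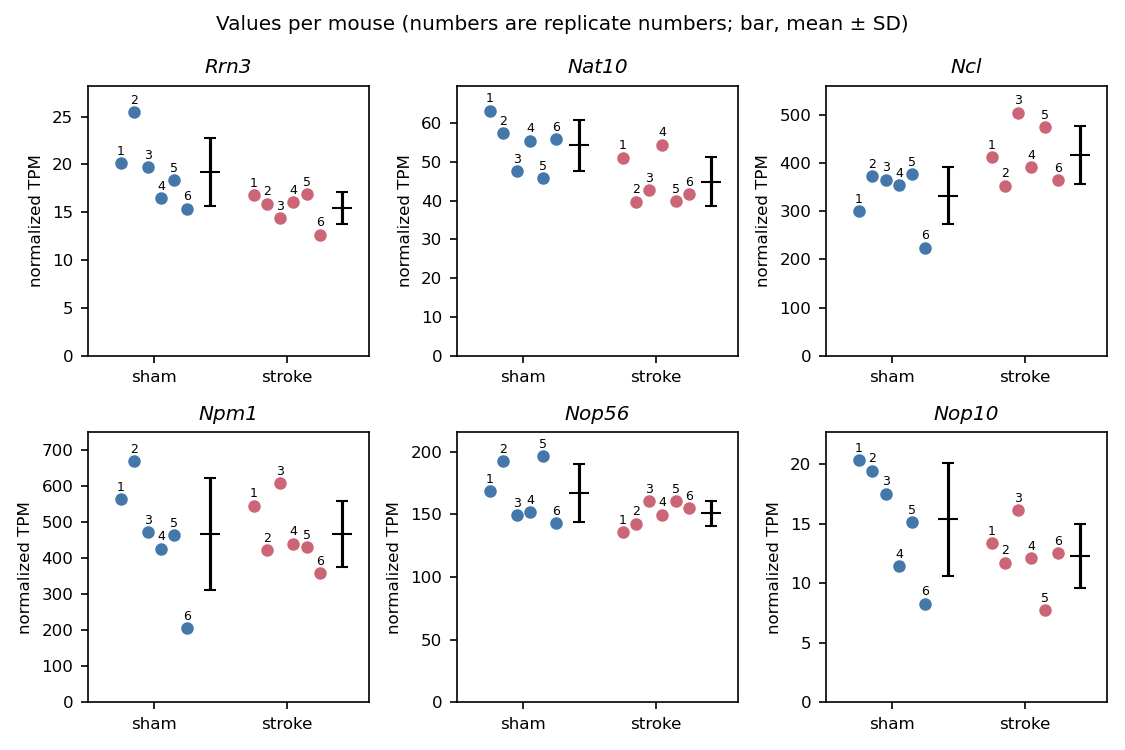
Normalized TPM in each mouse for 6 members, with points numbered by replicate and bars for the group mean ± SD; each vertical axis starts at 0. Stroke mice lie below the sham median in 6 of 6 cases for Rrn3, Nat10 and Nop10 and above it in 5 of 6 for Ncl, and sham 6 is the lowest sham control in every panel but that of Nat10.

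The snoRNP core proteins guide chemical modification of ribosomal RNA, and none of the 7 was called. In the box C/D class, which adds methyl groups to the sugar, Nop56 is a scaffold protein and had the highest level. It lies on chr2:130274430-130279313 (GRCm38). Its values were 143, 160 and 196 normalized TPM in sham controls and 136, 152 and 161 in stroke mice. Stroke values lay at the lower end of the sham range, with 2 stroke mice below the lowest sham control. Between the group means the log2 fold change was -0.14 (SE 0.11, 95% interval -0.38 to 0.10), with limma adjusted p = 0.832. For Nop56 it was -0.089 without sham 5, -0.077 without sham 1 and sham 2 and -0.012 with equal column totals. Its partner Nop58 had 0.0034 and the methyltransferase fibrillarin (Fbl) -0.11. For Fbl sham 6 differed from the other sham controls by -1.14 on the log2 scale, so its fold change was further from 0 without that mouse.

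In the box H/ACA class, which converts uridine to pseudouridine, all 4 log2 fold changes were negative, and none was called. With equal column totals, which shifted the median of all genes to 0.127, Dkc1 (0.10) and Gar1 (0.011) were positive. Nop10, a small protein that braces the enzyme, lies on chr2:112261926-112263269 (GRCm38). Its values were 8.29, 16.4 and 20.4 normalized TPM in sham controls and 7.77, 12.3 and 16.1 in stroke mice. Every stroke mouse lay below the sham median, yet sham 6 was nearly as low as the lowest stroke mouse, stroke 5. This came to a log2 fold change of -0.28 (SE 0.22, 95% interval -0.76 to 0.20), with p = 0.230 and adjusted p = 0.827 by limma and p = 0.268 in the exact two-sided permutation test. It was -0.44 without sham 6, -0.16 without stroke 5, -0.16 with equal column totals and -0.068 without sham 1 and sham 2. Dkc1, dyskerin, the pseudouridine synthase itself, had the highest level of the class and lies on the X chromosome (chrX:75095854-75109777, GRCm38). Its values were 50.9, 66.1 and 80.5 in sham controls and 56.2, 64.5 and 77.1 in stroke mice, with all stroke values inside the sham range. Dkc1 had a log2 fold change of -0.025 (SE 0.13, 95% interval -0.29 to 0.24), with limma adjusted p = 0.970. Nhp2, an RNA-binding core protein, had -0.25 and Gar1, which helps release of the product, -0.11.

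Of the 3 nucleolar chaperones 1, Ncl, was higher in stroke mice, and Npm1 and Ncl were the most abundant of all members. Nucleolin (Ncl), which binds ribosomal RNA precursor and histones, lies on chr1:86344719-86359400 (GRCm38). Its values were 224, 359 and 377 normalized TPM in sham controls and 353, 402 and 504 in stroke mice. Of 6 stroke mice, 5 lay above the sham median and 4 above the highest sham control, and sham 6 was the lowest mouse. The means were 332 ± 59.7 (SD, n = 6) and 416 ± 60.7 (SD, n = 6). The log2 fold change was 0.34 (SE 0.15, 95% interval 0.011 to 0.66), with p = 0.0434 and adjusted p = 0.791 by limma and p = 0.0346 in the exact two-sided permutation test. The call of Ncl held in 15 of 25 alternative settings, and it was lost without sham 1, sham 6 or stroke 1, 3, 4 or 5, with sample quality weights and with an intensity trend. With any 1 mouse left out Ncl had a log2 fold change of 0.23 to 0.38, and with the weights 0.19.

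Nucleophosmin (Npm1), a histone and ribosome chaperone and the highest member at a mean of 467 normalized TPM over all mice, lies on chr11:33152287-33163206 (GRCm38). Its values were 206, 467 and 669 in sham controls and 359, 435 and 608 in stroke mice. All stroke values lay inside the sham range, which was spanned by sham 6 and sham 2. The group means of Npm1 were 466 ± 155 (SD, n = 6) and 467 ± 91.5 (SD, n = 6), and the log2 fold change of 0.066 (SE 0.24) turned to -0.15 without sham 6. The 95% interval, -0.46 to 0.59, was among the widest of the members. Nolc1, which shuttles snoRNPs between nucleolus and Cajal bodies, had a log2 fold change of 0.020 and was not called. For Nolc1 sham 6 differed from the other sham controls by -0.62 on the log2 scale, and without that mouse the fold change was negative.

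**Figure D4:**
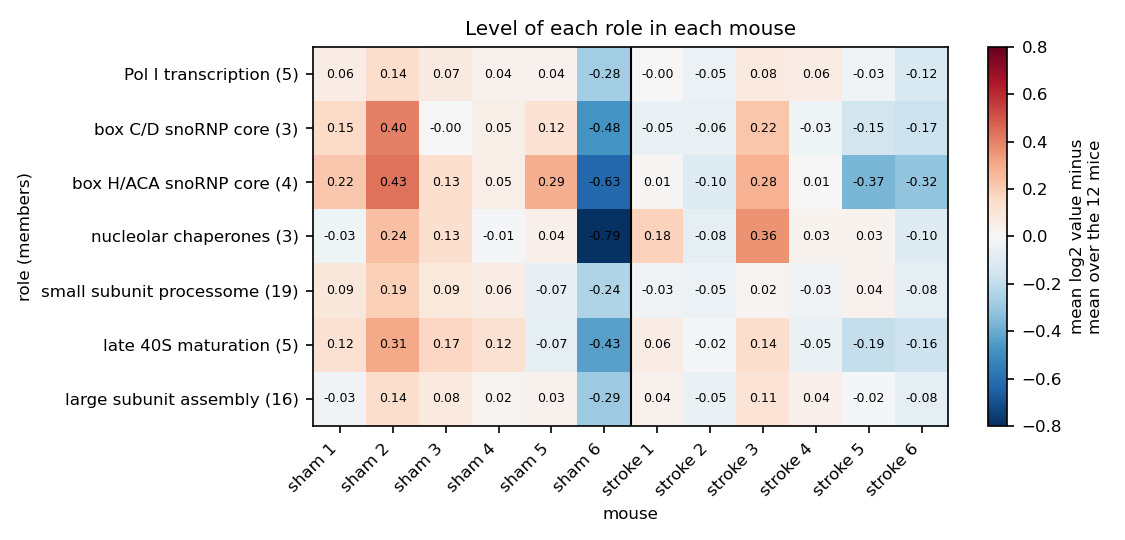
Mean log2(value + 0.5) of the members of each role in each mouse, minus the mean over the 12 mice; rows are roles with the number of members, columns are mice, and the colour scale runs from -0.8 to 0.8. Sham 6 is the lowest mouse in all 7 rows, from -0.24 for the small subunit processome to -0.79 for the chaperones, and sham 2 and stroke 3 are above 0 in all 7. The values are on the deposited scale. Over all members sham 6 has the highest mean with equal totals (5.70) and the lowest with median-of-ratios scaling (5.07).

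The small subunit processome, which folds and cuts the precursor around the small subunit RNA, contributed 19 members. Of these 1 was lower, Nat10, none was higher, and the log2 fold changes ran from -0.34 for Imp3 to 0.22 for Nop14 with a median of -0.048. Nat10 is an RNA acetyltransferase that marks small subunit RNA and lies on chr2:103721256-103761270 (GRCm38). Its values were 45.7, 55.7 and 63.1 normalized TPM in sham controls and 39.8, 42.2 and 54.4 in stroke mice. All 6 stroke mice lay below the sham median and 4 lay below the lowest sham control, which here was sham 5. The means were 54.2 ± 6.50 (SD, n = 6) and 44.9 ± 6.25 (SD, n = 6). On the log2 scale the change was -0.27 (SE 0.12, 95% interval -0.54 to -0.0067), with p = 0.0452 and adjusted p = 0.791 by limma and p = 0.0325 in the exact two-sided permutation test. The call held in 11 of 25 alternative settings, and with any 1 mouse left out the log2 fold change was -0.33 to -0.23. Of the 12 settings that left out 1 mouse, only those without sham 3, sham 5, stroke 1 or stroke 4 kept p below 0.05. Nat10 had -0.15 with equal column totals and -0.16 with sample quality weights, and was not called in either.

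Nop14, a processome component, had the largest positive difference of the 19 (chr5:34638536-34660148, GRCm38). Its values were 37.1, 42.4 and 49.0 normalized TPM in sham controls and 42.7, 49.1 and 58.6 in stroke mice. All 6 stroke mice lay above the sham median and 3 above the highest sham control. Stroke over sham gave a log2 fold change of 0.22 (SE 0.11, 95% interval -0.029 to 0.47), with p = 0.0788 and adjusted p = 0.791 by limma and p = 0.0498 in the exact two-sided permutation test. It was 0.34 with equal column totals, 0.12 with sample quality weights and 0.13 without sham 1 and sham 2.

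Imp3, which belongs to the U3 snoRNP that starts small subunit processing, is a gene of 1 exon on chr9:56937475-56938398 (GRCm38). Its values were 13.3, 23.7 and 34.6 normalized TPM in sham controls and 12.9, 16.7 and 26.4 in stroke mice. Only 1 stroke mouse lay below sham 6. Between the group means the log2 fold change was -0.34 (SE 0.23, 95% interval -0.84 to 0.17), with p = 0.174 and adjusted p = 0.815 by limma and p = 0.208 in the exact two-sided permutation test. It was -0.50 without sham 6, -0.21 with equal column totals and -0.10 without sham 1 and sham 2.

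Heatr1, which links polymerase I transcription to the first processing complexes, lies on chr13:12395027-12440289 (GRCm38). Its values were 33.9, 38.9 and 53.9 normalized TPM in sham controls and 32.5, 36.0 and 40.1 in stroke mice. The sham spread was the wider one, with an SD of 8.37 against 2.74. This came to a log2 fold change of -0.18 (SE 0.13, 95% interval -0.47 to 0.11), with limma adjusted p = 0.819. For Heatr1 it was -0.10 without sham 2 and -0.057 with equal column totals. Wdr43, from the same early complex and the highest of the 19, lies on chr17:71615895-71659031 (GRCm38). Its values were 123, 155 and 159 in sham controls and 109, 154 and 191 in stroke mice, whose range enclosed the sham range. Wdr43 had a log2 fold change of 0.0048 (SE 0.13, 95% interval -0.28 to 0.29), with limma adjusted p = 0.996.

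After the processome, 5 factors finish and export the small subunit, and none of them was called, although all 5 log2 fold changes were negative. With equal column totals Tsr1 (0.11), Ltv1 (0.10), Pno1 (0.052) and Nob1 (0.021) were positive, all below the shifted median of all genes. Rrp12, an export factor and the lowest of all 55 members, lies on chr19:41862851-41896173 (GRCm38). Its values were 7.52, 12.7 and 15.5 normalized TPM in sham controls and 9.38, 10.3 and 12.6 in stroke mice. All 6 stroke mice lay below the sham median but above sham 6. The log2 fold change was -0.15 (SE 0.16, 95% interval -0.49 to 0.19), with limma adjusted p = 0.859. For Rrp12 it was -0.27 without sham 6, -0.070 without sham 2, -0.029 with equal column totals and -0.011 without sham 1 and sham 2. Tsr1, a GTPase-like protein that holds the nascent small subunit inactive, had the highest level of the 5 and lies on chr11:74898071-74909342 (GRCm38). Its values were 30.1, 35.0 and 37.9 in sham controls and 32.3, 33.3 and 36.1 in stroke mice, all inside the sham range. Tsr1 had a log2 fold change of -0.015 (SE 0.098, 95% interval -0.23 to 0.20), with limma adjusted p = 0.977. Nob1, the nuclease that makes the last cut of small subunit RNA, had -0.10, its partner Pno1 had -0.074, and Ltv1, an assembly and export factor, had -0.021. For Pno1 sham 6 differed from the other sham controls by -1.36 on the log2 scale, so its fold change was further from 0 without that mouse.

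Large subunit assembly was covered by 16 factors, none of which was called. Their log2 fold changes ran from -0.16 for Nip7 to 0.15 for Rrp1, with a median of 0.013, and 6 were negative. Wdr12 forms the PeBoW complex with Pes1 and Bop1, which is needed to process large subunit RNA, and lies on chr1:60069785-60098645 (GRCm38). Its values were 32.3, 35.5 and 41.1 normalized TPM in sham controls and 36.2, 40.2 and 42.4 in stroke mice. All 6 stroke mice lay above the sham median and 3 above the highest sham control. On the log2 scale the change was 0.13 (SE 0.10, 95% interval -0.091 to 0.35), with p = 0.229 and adjusted p = 0.827 by limma and p = 0.106 in the exact two-sided permutation test, and with equal column totals it was 0.25. The partners Pes1 and Bop1 had log2 fold changes of 0.0077 and 0.063.

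Rrp1, a nucleolar processing factor, had the highest level of the 16 (chr10:78400384-78413043, GRCm38). Its values were 123, 152 and 170 normalized TPM in sham controls and 140, 159 and 193 in stroke mice. Of the 6 stroke mice 5 lay above the sham median, but only 1 above the highest sham control. Stroke over sham gave a log2 fold change of 0.15 (SE 0.12, 95% interval -0.11 to 0.41), with limma adjusted p = 0.827. For Rrp1 it was 0.097 without stroke 5, 0.055 with sample quality weights and 0.28 with equal column totals.

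Levels ranged widely among the members. By mean normalized TPM over all mice, Npm1 (467) and Ncl (374) led, followed by Nop56 (159), Rrp1 (154), Wdr43 (151), Nop58 (151) and Ubtf (126). Between Nop56 and Nop58 the differences were smaller than the SD between mice. Noc3l (11.5), Utp4 (11.4) and Rrp12 (11.2) were lowest and likewise lay within each other's spread. The median member had 35.9 normalized TPM against 18.8 over all genes tested.

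The spread between mice differed among members. The SD within groups on the log2 scale was largest for Nhp2 (0.537), Pno1 (0.482), Npm1 (0.457), Imp3 (0.440) and Nop10 (0.415). It was smallest for Noc3l (0.0977), Dcaf13 (0.107) and Tsr1 (0.110). Members were ranked by the length of their longest annotated coding transcript, which may not be the form expressed here. All 5 of the most variable genes were among the 18 members ranked shortest, none of them over 2232 bases. In those 18 the median SD was 0.305, against 0.207 in the 19 of middle length and 0.213 in the 18 longest, and sham 6 lay a median 0.63, 0.27 and 0.43 log2 units below the other sham controls. Without sham 6, 3 of the 18 short members, 2 of the 19 and 0 of the 18 long ones were called lower by limma, where 9.2% of all genes were, with median log2 fold changes of -0.15, -0.051 and -0.086. Length was looked at after the values were seen, and its part in the spread was not tested.

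**Figure D5:**
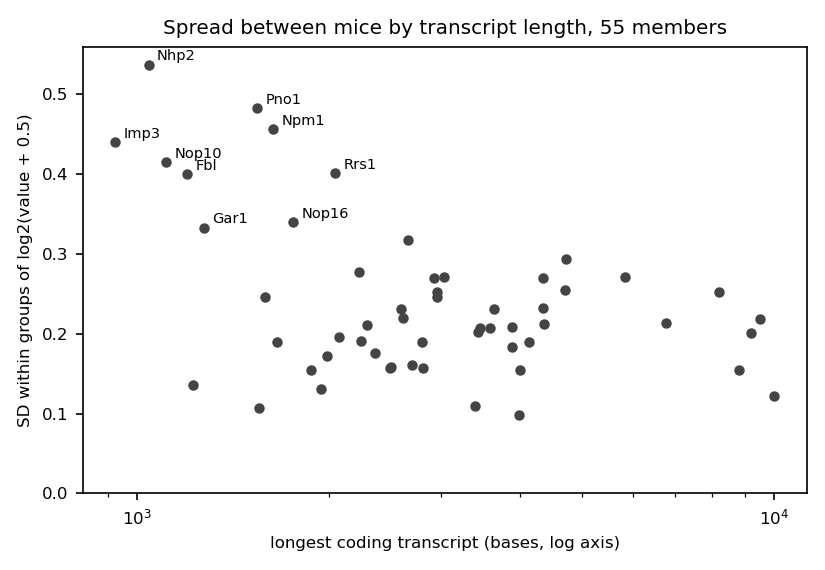
SD within groups of log2(value + 0.5) for each of the 55 members against the length of its longest coding transcript in bases (log axis, annotation GENCODE M21); points are genes. The points above 0.4 are Nhp2, Pno1, Npm1, Imp3, Nop10 and Rrs1, with Fbl at 0.400, and all are shorter than 2232 bases.

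Several members carry small nucleolar RNA (snoRNA) genes inside their own gene bodies. In the GRCm38 annotation 7 members held 21 snoRNA genes on the same strand, and these were Dkc1, Gnl3, Ncl, Nop56, Nop58, Tsr1 and Wdr43. They were more abundant than the rest, with a median level of 151 normalized TPM against 30.0 for the other 48. Of the 7, 4 had negative log2 fold changes and 1 was called (Ncl). The other 48 held the calls of Rrn3 and Nat10 and 26 negative values.

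Promoter sequences were examined because Myc binds the E-box, CACGTG, which is the same on both strands. RefSeq windows (GRCm38.p6) from 250 bases before to 50 after the annotated start matched 47 of the 55 members by symbol. The E-box was present in 12 of 47 members (25.5%), against 8.09% of the 27025 genes with windows of this kind. Those genes were not matched to the members by expression or base composition, whereas every member had passed the expression filter. The motif GGGCGG, searched on both strands, was in 66.0% of members and 38.2% of all genes. CCAAT was in 40.4% and 41.1%, and TATAAA in 4.26% and 15.7%. A match describes the letters in the window and shows no binding. The first E-box of each of the 12 members is shown with up to 10 bases on either side, 5′ to 3′ on the gene's strand, with the E-box in capitals, so that the flanks can be compared.
Imp4 promoter window, chr1:34439698-34439723, plus strand: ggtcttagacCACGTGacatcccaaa
Ltv1 promoter window, chr10:13193094-13193119, minus strand: cctgtggaccCACGTGtggagctgcc
Mybbp1a promoter window, chr11:72441357-72441376, plus strand: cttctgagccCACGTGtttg
Nop2 promoter window, chr6:125131813-125131838, plus strand: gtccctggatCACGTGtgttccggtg
Pes1 promoter window, chr11:3963967-3963992, plus strand: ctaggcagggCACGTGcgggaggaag
Pno1 promoter window, chr11:17211540-17211562, minus strand: tacaaccacgCACGTGttcctct
Rrn3 promoter window, chr16:13780474-13780499, plus strand: gcgccaaggtCACGTGcacacgcctc
Tsr1 promoter window, chr11:74898094-74898119, plus strand: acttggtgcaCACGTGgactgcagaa
Utp18 promoter window, chr11:93885771-93885796, minus strand: gagcgccggtCACGTGgcttgcggcg
Utp20 promoter window, chr10:88826765-88826787, minus strand: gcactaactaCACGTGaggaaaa
Utp4 promoter window, chr8:106893645-106893670, plus strand: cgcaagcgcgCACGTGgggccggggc
Wdr43 promoter window, chr17:71616222-71616247, plus strand: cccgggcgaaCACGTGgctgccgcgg

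The fold changes of members with and without an E-box are given side by side. Of the 12 with one, 7 had negative log2 fold changes, 1 was called (Rrn3) and the median was -0.018. Of the 35 with a window but no E-box, 19 were negative, 2 were called (Ncl and Nat10) and the median was -0.025. The windows of the 3 called members are shown whole, to place these motifs. Rrn3 holds 2 E-boxes, in capitals, and 1 copy of GGGCGG, left in lower case. Ncl holds no E-box but 3 copies of GGGCGG or its reverse complement, in capitals. Nat10 holds neither and is shown without capitals.
Rrn3 promoter, chr16:13780449-13780748, plus strand: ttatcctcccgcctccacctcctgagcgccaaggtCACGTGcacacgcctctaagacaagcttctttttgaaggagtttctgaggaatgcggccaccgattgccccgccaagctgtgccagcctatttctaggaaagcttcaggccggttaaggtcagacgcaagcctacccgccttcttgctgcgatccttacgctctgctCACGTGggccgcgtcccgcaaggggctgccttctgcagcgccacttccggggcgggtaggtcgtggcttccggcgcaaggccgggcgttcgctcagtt
Ncl promoter, chr1:86359406-86359705, minus strand: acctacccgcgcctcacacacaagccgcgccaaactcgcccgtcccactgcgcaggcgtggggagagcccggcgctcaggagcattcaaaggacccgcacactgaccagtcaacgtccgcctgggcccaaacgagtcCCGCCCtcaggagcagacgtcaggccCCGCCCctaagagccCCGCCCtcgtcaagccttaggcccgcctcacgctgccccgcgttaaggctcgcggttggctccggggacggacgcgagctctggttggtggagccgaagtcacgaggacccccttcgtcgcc
Nat10 promoter, chr2:103761221-103761520, minus strand: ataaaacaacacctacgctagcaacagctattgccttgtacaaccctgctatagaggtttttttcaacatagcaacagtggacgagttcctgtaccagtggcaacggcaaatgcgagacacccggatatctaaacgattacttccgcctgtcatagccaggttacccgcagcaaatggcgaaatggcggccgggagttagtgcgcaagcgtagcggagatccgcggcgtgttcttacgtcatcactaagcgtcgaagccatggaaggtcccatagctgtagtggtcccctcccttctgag

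Near-identical copies elsewhere in the genome could share reads with a member. At an identity of at least 95% over at least 50% of the longest coding transcript, 5 members had such a copy, Fbl, Imp3, Mrto4, Npm1 and Pes1. Copies of 4 of these were in the table, and their values came to at most 1.60% of the member's own value, for Fbl. The values of these 5 members are therefore less certain than those of the other 50, whereas Rrn3, Nat10 and Ncl had no such copy.

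The wider machinery was read from a second list of ribosome biogenesis genes, of which 95 were found in the table and all 95 were tested. Of these 4 were lower in stroke mice at p below 0.05 and 1 was higher, 4.21% and 1.05% against 1.69% and 4.42% of all genes. The median log2 fold change was -0.032, 52 were negative, and the smallest adjusted p was 0.748. Spata5, an AAA ATPase of large subunit maturation, had values of 34.7, 39.4 and 44.2 normalized TPM in sham controls and 24.4, 29.5 and 38.7 in stroke mice. The change was -0.38 on the log2 scale (SE 0.13), with p = 0.0109 by limma and p = 0.0152 in the exact permutation test. Polr1e, a further subunit of RNA polymerase I, had 17.9, 19.0 and 21.9 in sham controls and 11.01, 15.6 and 18.9 in stroke mice, which gave -0.33 on the log2 scale (SE 0.13), p = 0.0215 by limma and p = 0.00649 in the exact permutation test. Mdn1, the large ATPase that strips assembly factors from the large subunit, had 45.5, 54.2 and 59.5 against 36.3, 44.1 and 49.9, with a log2 fold change of -0.30 (SE 0.12), p = 0.0220 by limma and p = 0.0152 in the exact permutation test. Nol11, a processome component, was also lower at a log2 fold change of -0.32, and Ddx27, an RNA helicase, was higher at 0.23. In each of Spata5, Polr1e and Mdn1 the groups overlapped. None of the 5 calls held with equal column totals, where Spata5 had -0.26, Polr1e -0.21, Mdn1 -0.18, Nol11 -0.19 and Ddx27 0.35. Leaving out 1 mouse ended the call of Mdn1 without stroke 1, of Nol11 without any 1 of sham 1 to 4 or stroke 5 or 6, and of Ddx27 without any 1 of the mice other than sham 4 and stroke 1. The call of Ddx27 was also lost with median-of-ratios scaling, quantile normalization, sample quality weights and the replicate block.

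Upstream of the members, the Myc and mTOR list held 24 genes, of which 21 were tested, 0 were lower and 3 were higher, or 0% and 14.3% against 1.69% and 4.42% of all genes. Myc itself differed by less than the spread between mice, with 17.3, 32.9 and 40.7 normalized TPM in sham controls and 11.1, 33.4 and 42.1 in stroke mice. The change was -0.081 on the log2 scale (SE 0.30), with limma adjusted p = 0.962. Mtor had group means of 20.6 ± 0.726 (SD, n = 6) and 20.4 ± 2.25 (SD, n = 6) and a log2 fold change of -0.022 (SE 0.10), with limma adjusted p = 0.966.

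The 3 higher genes were Sesn1, Mxd4 and Ddit4. The other 18 genes tested were not called, with log2 fold changes from -0.43 for Mlx to 0.27 for Mxd3, of which 9 were negative. Sesn1, which restrains mTOR complex activity, had 24.9, 33.9 and 48.6 normalized TPM in sham controls and 40.02, 82.9 and 263 in stroke mice. Sesn1 had a log2 fold change of 1.28 (SE 0.36), with p = 0.0032 and adjusted p = 0.716 by limma and p = 0.00649 in the exact permutation test, and stroke 5 was far above the other stroke mice. Mxd4, a partner of Max that opposes Myc, had 30.7, 37.4 and 45.04 in sham controls and 41.9, 47.0 and 51.5 in stroke mice, which gave 0.32 on the log2 scale (SE 0.11), with p = 0.0135 by limma and p = 0.00433 in the exact permutation test. Ddit4, an inhibitor of mTOR signalling, had 6.66, 26.8 and 33.0 against 23.3, 37.2 and 45.8, with a log2 fold change of 0.81 (SE 0.36), p = 0.0430 by limma and p = 0.0671 in the exact permutation test. Without sham 6, its lowest mouse, Ddit4 had 0.52 and was not called, and the call was also lost without sham 5 or stroke 1, 3, 4 or 5. None of the 3 passed the adjusted threshold.

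Markers of other cells were measured beside these results. The 7 epithelial genes summed to 9.79 to 1325 normalized TPM in sham controls, highest in sham 1, and to 12.0 to 572 in stroke mice, with medians of 313 and 108. All 4 epithelial genes tested had negative log2 fold changes, between -1.84 and -1.59 with a median of -1.65, and none was called. Without sham 6 all 4 were called lower by limma, with a median of -2.48 and a smallest adjusted p of 0.256. The 8 T cell genes summed to 81.4 to 144 and 67.2 to 175, and the 6 neutrophil genes to 1.19 to 3.25 and 1.03 to 5.35. The 6 endothelial genes summed to 83.8 to 108 and 91.1 to 110, but Pecam1, a gene that lymphocytes also express, made up 92% to 95.5% of this. Cdh5, Kdr, Tek and Cldn5 were at most 2.93 in any mouse, with Tek and Cldn5 at 0 in some, and Vwf ran from 2.98 to 5.34. The 6 macrophage and dendritic cell genes summed to 32.7 to 297 and 37.2 to 154, and the 6 plasma cell genes to 295 to 1486 and 372 to 1085. The 8 germinal centre B cell genes and the 10 cycling cell genes summed to 419 to 673 and 371 to 574, and to 358 to 762 and 429 to 799. All genes of the T cell, plasma cell, germinal centre and cycling lists entered the test, and none was called. Of the others only 4 epithelial, 3 macrophage and dendritic cell, 2 endothelial and 0 neutrophil genes passed the filter, and none of those was called. Of the 8 B cell markers 2 were lower in stroke mice, Cr2 with a log2 fold change of -0.83 and Fcer2a with -0.72. Stroke 5 had the lowest value of both, and without it they were -0.51 and -0.36. The part of cell composition in the members' values was not tested.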

How the data were processed

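RNA from magnetically purified PP B cells of 6 sham controls and 6 stroke mice was sequenced by the authors. Per the labels and the methods of the study, reads were checked with FastQC, trimmed with Trimmomatic 0.39, and quantified with kallisto 0.48.0 against Ensembl release 102 (GRCm38), and sleuth 0.30.0 (R 4.1.2) compared the groups by a Wald test. The deposited values are a normalized TPM signal per gene: column totals ran from 559570 to 1404340, so they are not plain TPM and were treated as a length-corrected signal, although the design had assumed TPM. How that normalization was done is not given in the sources used here. Groups came from the treatment label, and 0 columns of other samples were present.

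Here log2(value + 0.5) was fitted with limma 3.58.1 in R 4.3.3, without covariates, for the 12590 genes that no mouse had below 1, and p-values were adjusted by Benjamini-Hochberg. Single members were also tested over all 924 assignments of 6 against 6 mice, where the smallest possible p is 0.00216. The limma step was tested on simulated data, with planted changes larger than that of any member and noise independent between genes and mice. That test therefore does not cover changes of the size seen in the members, or a mouse that deviates in many genes at once. Member tables and figures were made in Python 3.11.15. Copies of members were searched with BLAST 2.17.0, gene positions came from GENCODE M21 and promoters from RefSeq (GRCm38.p6). The members, their roles and all gene lists were chosen with earlier results of these data known. Values were given for any member without overlap, the 10 with the smallest p, and per role the member with the smallest p and the one with the highest level. Of each pathway list the 3 genes with the smallest p were named, with Myc and Mtor in any case. Other genes named beside these were chosen after their values were seen. Alternatives were other pseudocounts, filters and scalings, sample weights, an intensity trend, a replicate block and each mouse left out in turn. Leaving out sham 6 with stroke 6, or sham 1 with sham 2, was added after the data were seen. No label says what the same replicate number in both groups shares, so no pairing was used.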

Additional observations from a re-analysis of the deposited data

Results flagged for a closer look

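Among 52 groups of 6 values checked (the 16 members described, the named genes of the pathway lists and the members' mean level), 6 had a lowest or highest mouse far from the rest, judged by its gap to the nearest other mouse as a share of the group's range. Chance alone gives this in about 5% of groups. Ubtf was lowest in sham 6, at 75.5 normalized TPM, and the members' mean log2 level was lowest in the same mouse, at 4.94 on the deposited scale. In sham 6 this level was also the lowest with median-of-ratios scaling, 5.07, but the highest with equal totals, 5.70. Wdr43, the early processome protein, was lowest in sham 1, at 123 normalized TPM against a sham median of 155. Rrp12, the small subunit export factor, was highest in stroke 3, at 12.6 against a stroke median of 10.3. Stroke 5 had the highest value of Sesn1 among the stroke mice, 263 against a median of 82.9, and the lowest value of Myc, 11.1 against 33.4.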

How the results depend on the processing

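Depth is unknown, each group has 6 mice, and no member passed adjusted p below 0.05 under any setting. Values are log2 fold changes or counts at unadjusted p below 0.05 from limma, and except where stated the cause of a change was not tested.

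With equal column totals the median of all genes shifted to 0.127 and of the members to 0.102 (0.123 and 0.0976 with immunoglobulin genes left out of the totals), against 0.0069 and -0.021. The split of higher to lower genes, 557 to 213, became 348 to 69 with equal totals, 344 to 71 without immunoglobulin genes and 378 to 327 after quantile normalization. Genes above 0 in any mouse gave 1418 higher and 350 lower, by testing more genes, and a mean of at least 1 gave 1 gene past the adjusted threshold. Sample weights gave 866 and 703, leaving out sham 6 with stroke 6 gave 806 lower, and leaving out sham 1 with sham 2 gave 139. With 1 mouse left out the counts were 396 to 937 higher, 144 to 1158 lower and 0 to 1 past the adjusted threshold.

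Members lower were 0 with either kind of equal totals and without sham 1 and sham 2, and 1 after quantile normalization. With median-of-ratios scaling Rrn3, Nat10 and Ncl were still called. Members higher were 2 for genes above 0 in any mouse (Nop14 joined) and 0 with weights, an intensity trend, without sham 6 and stroke 6, or without sham 1 and sham 2. With 1 mouse left out they were 0 to 5 lower and 0 to 1 higher, 5 lower without sham 6 and none without sham 1, sham 2, stroke 2, stroke 3 or stroke 6. Overlap of the groups was read for the main setting, both kinds of equal totals, median-of-ratios scaling and the settings with mice left out. Quantile normalization was not among these. Within the settings read, Ncl alone had groups without overlap, only with equal totals free of immunoglobulin genes. Of the wider biogenesis genes, lower calls were 0 with either kind of equal totals, 7 with weights, 8 without sham 6 and stroke 6, 2 without sham 1 and sham 2, and 3 to 9 with 1 mouse left out. Higher calls were 2 without sham 6 and stroke 6, 0 to 2 with 1 mouse left out, and 0 with either kind of equal totals, median-of-ratios scaling, quantile normalization, the replicate block, or without sham 1 and sham 2. Lower calls of the Myc and mTOR list were 1 with the replicate block, weights, or without sham 6 and stroke 6, and 0 to 2 with 1 mouse left out. Its higher calls, 3, were 2 with either other filter, weights, or without sham 6 and stroke 6, and 2 to 3 with 1 mouse left out.

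Direction turned for members near 0. Dkc1 was 0.10 and 0.096 with the kinds of equal totals, 0.053 without sham 1 and sham 2, and -0.095 to 0.036 with 1 mouse left out. Tsr1 was 0.11 and 0.11, 0.023, and -0.051 to 0.015 in the same order. With weights and without sham 6 and stroke 6, Npm1 was -0.030 and -0.081, Ubtf -0.019 and -0.033, and Wdr43 -0.034 and -0.0028. Wdr43 was also -0.042 without sham 1 and sham 2. With 1 mouse left out Npm1 was -0.15 to 0.19, Ubtf -0.062 to 0.12 and Wdr43 -0.065 to 0.096.

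Same-numbered mice of the groups had correlated deviations in 4 of 6 numbers (over 0.1), with r from 0.0134 to 0.494 and a mean of 0.218 against -0.041 for other numbers, and of 6 mice in each group 2 correlated best with their own number. This is a hint of pairing from the data, but not every number passed and no label ties the numbers to a shared experiment, so they were not taken as pairs. With the replicate block 404 genes were lower and 770 higher, members lower remained 2 (Rrn3, Nat10) and higher 1 (Ncl), and the smallest adjusted p of a member was 0.498.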
